A study of Mus musculus with 16 samples.

Results

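In KC-shSmad4 pancreatic cancer cells, 1020 of 136630 nuclear ATAC-seq peaks had lower accessibility after Smad4 restoration in tumours of the pancreas, liver and lungs alike. ATAC-seq marks open chromatin by where a transposase can insert into DNA. The 1020 members were chosen by the deposited values themselves. A member had a mean normalised count of at least 40 over the 16 samples, and in each of the 3 organs its mean with Smad4 restored was at most 0.7 of its mean with Smad4 off. Of the 82067 peaks with a mean of at least 40, the members made up 1.24%. The lower level within each organ is therefore what defines them. It is described below without a test, while location and sequence were not part of the rule. Differences between organs were not part of it either. They use the same values as its ratios and its minimum mean, so their p-values are not independent of the choice of members.

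The tumour cells came from mice in which Ptf1a-Cre, active in the pancreatic lineage, switched on a tetracycline transactivator linked to the red reporter mKate2, in cells that also carried a GFP-linked short hairpin RNA that doxycycline induces and that targets Smad4. Cell lines from such tumours were put into the pancreas, into the spleen to seed the liver, or into the tail vein to seed the lungs of female Foxn1 nude mice aged 6 to 8 weeks, which lack T cells. All groups share this genotype and growth under doxycycline, during which Smad4 is off. Doxycycline was then withdrawn for 14 days in the restored groups (the lung columns of the table name day 15), so that Smad4 came back from its own locus. Withdrawal began 4 weeks after transplantation for the pancreas, 5 for the liver and 6 for the lungs, so organ, route and time of growth cannot be told apart. Sorted mKate2-positive cells of separate mice gave 3 samples in each of Panc_OFF, Panc_ON, Lung_OFF and Lung_ON, and 2 in each of Liv_OFF and Liv_ON, where ON means Smad4 restored.

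Smad4 is the shared partner of the receptor-activated Smads of TGF-beta and BMP signalling. The complex enters the nucleus, binds short DNA elements together with other transcription factors, and can activate or repress genes. Loss of Smad4 is common in pancreatic ductal adenocarcinoma. Accessible chromatin at enhancers generally reflects which factors occupy them, and AP-1 factors are widespread binders of enhancers in carcinoma cells.

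The sequences of 6 members are shown first, since they include members with the lowest ratios, the most accessible distal member and a promoter that stood far higher in the liver. Each is the 300 bases at the middle of the peak, on the forward strand of GRCm38.p6. Capitals mark exact matches, on either strand, to 13 short motifs: TGANTCA (AP-1), CAGACA (SMAD), CCACCC (KLF), TGTGGT (RUNX), GGAATG (TEAD), TGTTTAC (FOX), GTTAAT (HNF1), CAAAGTC (HNF4), GGAAGT (ETS), ATCAATA (ONECUT), AGATAA (bound by factors of the GATA family), ACAATG (SOX) and CACCTG (the E-box of the SNAI and ZEB repressors). None of these motifs contains another. A match is a description of letters and not a measured binding site.
Arl15 intron, chr13:113842409-113842708: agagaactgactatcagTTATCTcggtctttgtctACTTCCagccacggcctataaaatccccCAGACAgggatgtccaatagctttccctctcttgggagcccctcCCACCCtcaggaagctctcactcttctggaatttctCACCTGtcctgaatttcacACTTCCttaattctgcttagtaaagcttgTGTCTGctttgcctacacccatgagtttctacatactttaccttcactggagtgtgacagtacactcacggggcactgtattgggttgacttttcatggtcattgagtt
Slc29a3 intron, chr10:60749331-60749630: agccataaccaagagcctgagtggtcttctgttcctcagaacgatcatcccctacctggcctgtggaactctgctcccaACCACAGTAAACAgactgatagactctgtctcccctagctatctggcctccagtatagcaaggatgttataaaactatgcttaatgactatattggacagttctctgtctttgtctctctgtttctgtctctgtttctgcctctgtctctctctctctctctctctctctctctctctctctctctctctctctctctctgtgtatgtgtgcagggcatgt
Gli2 intron, chr1:119004468-119004767: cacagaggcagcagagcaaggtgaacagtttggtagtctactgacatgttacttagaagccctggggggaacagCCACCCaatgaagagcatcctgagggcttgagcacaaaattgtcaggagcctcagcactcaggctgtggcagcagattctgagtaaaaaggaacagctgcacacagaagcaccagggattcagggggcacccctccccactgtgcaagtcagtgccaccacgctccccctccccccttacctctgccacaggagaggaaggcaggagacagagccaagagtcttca
Mcph1 intron nearest Angpt2, chr8:18782755-18783054: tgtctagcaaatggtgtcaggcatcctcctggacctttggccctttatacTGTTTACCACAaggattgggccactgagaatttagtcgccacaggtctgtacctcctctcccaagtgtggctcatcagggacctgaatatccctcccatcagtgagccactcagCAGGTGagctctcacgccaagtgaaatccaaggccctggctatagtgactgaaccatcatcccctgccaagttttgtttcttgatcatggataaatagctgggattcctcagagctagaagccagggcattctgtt
Upstream of Xbp1, chr11:5498938-5499237: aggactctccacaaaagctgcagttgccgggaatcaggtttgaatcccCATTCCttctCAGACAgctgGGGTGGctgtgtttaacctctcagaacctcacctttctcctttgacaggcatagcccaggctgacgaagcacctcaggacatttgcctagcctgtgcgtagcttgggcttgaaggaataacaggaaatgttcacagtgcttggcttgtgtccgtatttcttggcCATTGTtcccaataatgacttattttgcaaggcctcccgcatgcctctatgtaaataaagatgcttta
Il17c promoter, chr8:122421628-122421927: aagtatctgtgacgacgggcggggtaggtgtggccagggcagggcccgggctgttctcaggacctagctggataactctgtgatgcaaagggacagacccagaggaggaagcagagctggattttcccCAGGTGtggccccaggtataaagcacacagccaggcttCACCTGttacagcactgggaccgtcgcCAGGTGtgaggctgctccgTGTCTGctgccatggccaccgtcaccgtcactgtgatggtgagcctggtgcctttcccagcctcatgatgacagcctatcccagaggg
The Arl15 window held 2 SMAD matches, 2 ETS matches and 1 each for KLF, GATA and the E-box. The Angpt2 window held 1 RUNX, 1 FOX and 1 E-box match, and the Il17c window held 3 E-box matches and 1 SMAD match. None of these 6 windows held an AP-1 match. Of 22 windows searched in this way, among them all 10 members of lowest ratio, 1 did, at the chromosome 3 site described below.

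Across the members the median ratio of restored to off mean was 0.497, 0.549 and 0.610 in pancreas, liver and lungs, against 0.995, 1.00 and 0.998 over all peaks with a mean of at least 40. The pancreas had the lowest ratio at 578 members, the liver at 332 and the lungs at 110. In 90 members the ratio was at most 0.5 in every organ. Of the peaks past the limit in a single organ, members were 8.81% of 11577 for the pancreas, 16% of 6374 for the liver and 13.4% of 7639 for the lungs. The mirrored rule, a mean at least 1/0.7 as high with Smad4 restored in every organ, was met by 1149 peaks, called the mirror set below.

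**Figure D1:**
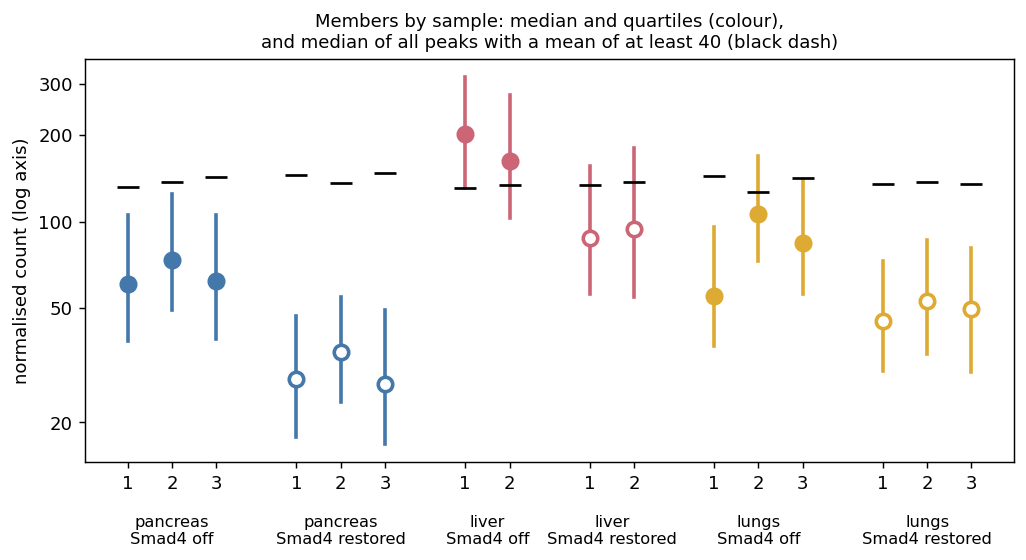
Normalised counts of the 1020 members in each of the 16 samples (log axis): circles are medians, bars span the quartiles, filled circles are Smad4 off and open circles Smad4 restored, and black dashes are the median of all 82067 peaks with a mean of at least 40. The liver samples with Smad4 off stand highest, at 163 and 201, and the pancreas samples with Smad4 restored lowest, at 27.2 to 35.3.

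By sample, the members' median normalised count in the pancreas was 60.6, 73.3 and 62.0 with Smad4 off and 28.4, 35.3 and 27.2 with Smad4 restored. In the liver it was 201 and 163 with Smad4 off and 87.4 and 94.4 with Smad4 restored. In the lungs it was 55.2, 107 and 84.4 with Smad4 off and 44.9, 52.7 and 49.5 with Smad4 restored. The groups did not overlap in any organ, but the first lung sample with Smad4 off lay nearer to the restored lung samples than to its own group. Its weight in the rule was large: without it 1813 peaks met the rule, 989 of them members, and without the second Lung_OFF sample 504 did, 487 of them members. In the bulk samples, fewer cells with an open site and less accessibility per cell cannot be told apart.

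The spread between replicates limited how many members stood apart singly. With limma, where a call needed a log2 difference of 0.58 or more in size and an adjusted p no higher than 0.1 over all nuclear peaks, 401 members were lower in the pancreas after restoration, where 3.06% of all peaks were called lower. In the liver 57 members were called lower, against 0.0886% of all peaks, and in the lungs 3 were, against 0.0022%. In the lungs same-numbered samples deviated together. A fit to all 16 samples with the replicate number as a block within the lungs called 11 members. A fit to the lung groups alone, without a block, called 0. The rule used these contrasts, so nothing is read from the counts. All restored samples lay below all Smad4-off samples for 791, 986 and 349 members in pancreas, liver and lungs. The same held, in this direction, for 13.3%, 22.9% and 4.82% of all peaks. Members had a median of 28.5 to 163 reads per sample in libraries of 22.5 M to 37.5 M reads in nuclear peaks. By an interaction term of the limma fit, no peak was called as differing between organs in its response. This cannot show an equal response, since the groups held few samples. In the lungs the same fit called only 0.0022% of all peaks lower after restoration.

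At the limit, the members just inside had their largest ratio at 0.69991, 0.69957 and 0.69952 (an intron of Dip2c, the promoter of Psors1c2 and an intron of Slc39a9). The peaks just outside, nearest to Fam98b, B4galnt3 and Il22ra2, had 0.70005, 0.70016 and 0.70016. On the mean count, the lowest members stood at 40.004 to 40.05 (introns of Stat4, Rprd1b and Cd82), and the nearest peaks below at 39.92 to 39.98.

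The surroundings of the members were near the middle of all peaks. Among the other peaks with a mean of at least 40 within 1 Mb of each member, non-members only, the median ratio was typically 0.975, 0.972 and 0.987 in pancreas, liver and lungs. These values cover 1018 members with at least 5 such neighbours, and nothing is read from how the members compare with them, since the rule fixed their ratios. Surroundings that were low in the lungs lay mostly on distal chromosome 6 (124 to 150 Mb), a stretch over which the first Lung_OFF sample was raised, with a median of 2.54 times the 16-sample mean over 1146 non-members against 0.611 to 1.18 in the other 15 samples. It held 37 members, and 37 of the 42 members whose surroundings in the lungs were at or below 0.8 lay there. Closer in, 557 non-members within 5 kb of a member had median ratios of 0.843, 0.830 and 0.896. Each of chromosomes 1 to 19 and X held members, from 0.547% of the peaks with a mean of at least 40 on chromosome 15 to 1.72% on chromosome 6, and 131 members had another member within 10 kb.

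The member with the lowest ratio in its least affected organ lay in an intron of Arl15, an ARF-like small GTPase, at chr13:113842075-113843044. Its normalised counts in the pancreas were 195, 230 and 169 with Smad4 off and 39.1, 30.9 and 18.4 with Smad4 restored. In the liver they were 470 and 272 against 61.7 and 32.5, and in the lungs 54.3, 145 and 179 against 18, 31.6 and 21.5. The states did not overlap in any organ, and the ratios were 0.149, 0.127 and 0.188. In an intron of Slc29a3, a nucleoside transporter of lysosomes, at chr10:60749058-60749904, the counts were 88.0, 105 and 104 against 14.2, 32.2 and 16.1 in the pancreas. They were 88.9 and 44.6 against 10.5 and 8.12 in the liver and 79.2, 77.2 and 92.2 against 13.5, 11.5 and 24.3 in the lungs. Its level with Smad4 off was close to even over the organs, with means of 98.7 ± 9.34, 66.7 ± 31.3 and 82.8 ± 8.16 in pancreas, liver and lungs (SD, n = 3, 2 and 3).

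Among the 10 members whose highest ratio over the organs was lowest, 2 more lay in introns of Gli2, and others in introns of Msi2, an RNA-binding protein, and Pkib, an inhibitor of protein kinase A. One lay in an intron of Mcph1 with Angpt2, a ligand of the Tie2 receptor, as nearest start site, and one in an intron of Rassf4 nearest to Zfp422. The remaining 2, on chromosomes 3 and 9, had no protein-coding start site within 100 kb. At the Angpt2 site, chr8:18782399-18783412, the counts were 290, 280 and 241 against 32.0, 45.8 and 24.5 in the pancreas, 437 and 326 against 80.4 and 65.0 in the liver, and 110, 446 and 390 against 69.6, 65.2 and 164 in the lungs. Here the lungs overlapped, since the first Lung_OFF sample lay below the third Lung_ON sample.

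**Figure D2:**
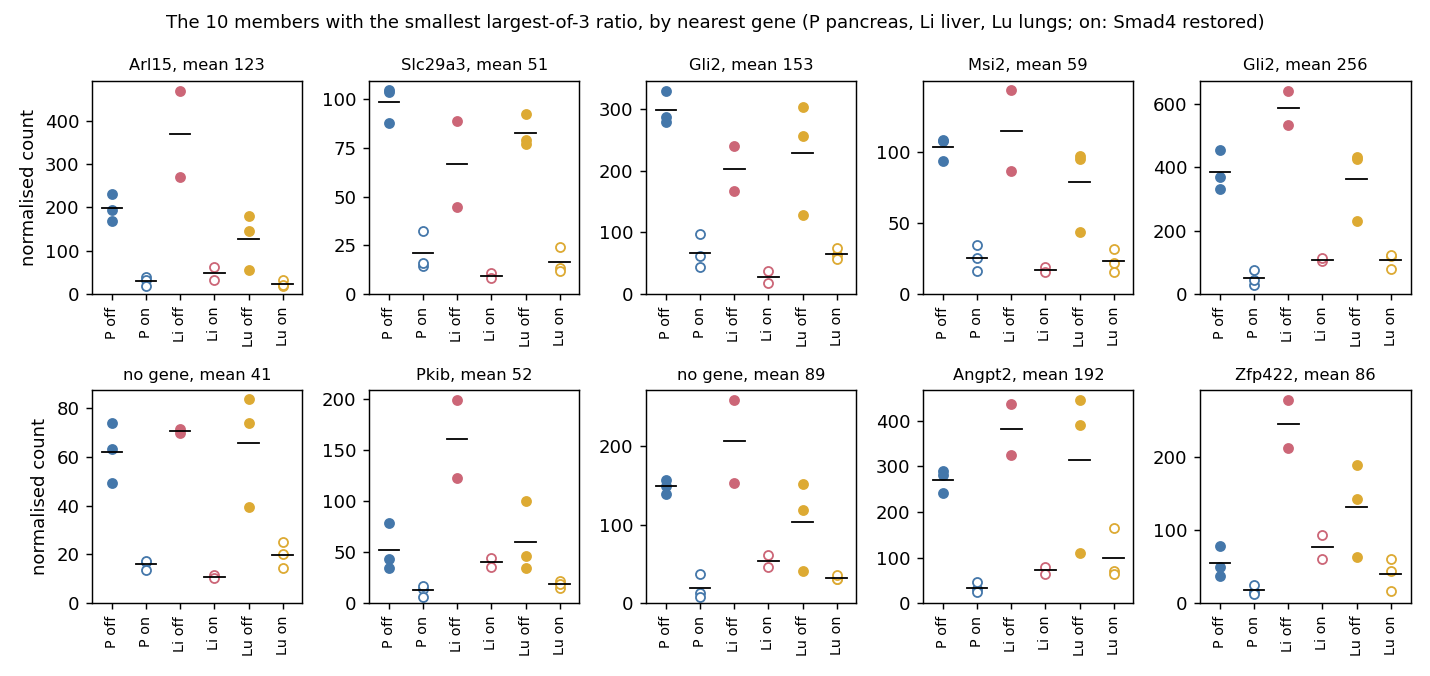
Normalised counts (linear axis from 0) of the 10 members whose highest ratio over the organs was lowest, titled by nearest gene and mean count. Points are samples, filled with Smad4 off and open with Smad4 restored, and bars are group means. The states are apart in every organ in 9 of the 10 panels, and overlap in the lungs in the Angpt2 panel. The choice by lowest ratio favours such separation, so nothing is read from it.

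Gli2, a zinc finger activator at the end of the Hedgehog pathway, was nearest gene to 8 members, more than any other gene. They were 8 of the 17 peaks with a mean of at least 40 that had Gli2 as nearest gene, and they spanned 98.5 kb (chr1:118955781-119054303) from the start site into the gene. The promoter member, chr1:119051311-119054303, had counts of 1051, 957 and 1021 with Smad4 off and 644, 493 and 346 with Smad4 restored in the pancreas. In the liver they were 1265 and 1130 against 325 and 256, and in the lungs 792, 926 and 1021 against 250, 309 and 356. With Smad4 off this promoter was at a similar level in all organs (1010 ± 48.2, 1197 ± 95.5 and 913 ± 115 in pancreas, liver and lungs, SD, n = 3, 2 and 3). The limma log2 fold changes between organs were at most 0.40 in size with SE of 0.19 to 0.21, with adjusted p from 0.131 to 0.652.

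**Figure D3:**
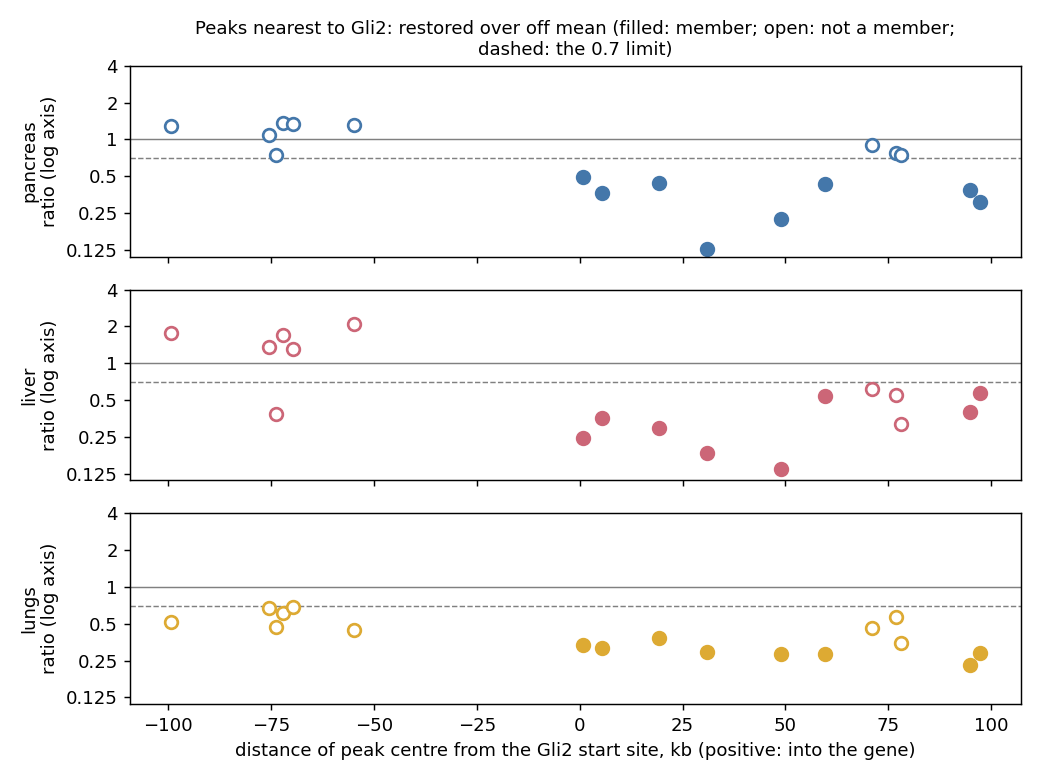
Ratio of restored to off mean (log axis) in each organ for the 17 peaks nearest to Gli2 with a mean of at least 40, against distance of the peak centre from the Gli2 start site in kb. The 8 members (filled) lie from the start site into the gene, with ratios of 0.127 to 0.570. The 9 non-members (open) had medians of 1.09 in the pancreas and 1.31 in the liver but 0.520 in the lungs.

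The other Gli2 members differed in which organ they favoured. At chr1:118955781-118956819 the Smad4-off counts were 260 and 266 in the liver, 55.5, 86.7 and 65.8 in the pancreas, and 48.8, 103 and 43.9 in the lungs. By limma it was higher in the liver than in the lungs by 2.10 (SE 0.43, adjusted p = 0.00115) and than in the pancreas by 1.93 (SE 0.43, adjusted p = 0.00136), on the log2 scale. At chr1:119033843-119034589 the order turned, with 293, 323 and 423 in the pancreas, 120 and 66.9 in the liver and 62.6, 78.2 and 107 in the lungs. That member was lower in the liver than in the pancreas by a log2 fold change of -1.92 (SE 0.45, adjusted p = 0.00196). All 6 upstream peaks of the locus were non-members, and 4 of the 9 non-members were below 1 in every organ.

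A further 17 genes were nearest gene to 3 members each. Those of known role in epithelial transport and secretion were Pigr, the receptor that carries IgA across epithelia, the phosphate cotransporter Slc34a2 and the nucleoside transporter Slc28a3. Acot1, an acyl-CoA thioesterase, Gsta3, a glutathione transferase, and Ppp1r3c, which targets a phosphatase to glycogen, act in metabolism. Adora1 encodes an adenosine receptor, Heyl a repressor induced by Notch, Sort1 a sorting receptor, Pdcd4 an inhibitor of translation and Hpcal1 a calcium sensor. The others were Coro6, Fars2, Lrfn2, Mettl7b, Micall2 and 0610040J01Rik. At Lrfn2 the 3 members were the only 3 peaks with a mean of at least 40, with ratios of 0.191 to 0.596. At Pigr they were 3 of 5, and the remaining 2 had median ratios of 0.653, 0.501 and 0.702 in pancreas, liver and lungs. In all, 754 genes were nearest to 859 members, and 672 of them to a single member.

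The Pigr site of highest count, chr1:130819739-130822687, lay 3997 bp from the start site. Its counts were 312, 503 and 232 against 134, 161 and 119 in the pancreas, 1957 and 1698 against 771 and 697 in the liver, and 221, 727 and 430 against 222, 291 and 333 in the lungs. The liver with Smad4 restored thus stood above the pancreas with Smad4 off. In the lungs the states overlapped at this site.

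By location, 66 members (6.47%) lay within 1000 bp of a protein-coding start site, 32 (3.14%) in exons, 469 (46.0%) in introns and 453 (44.4%) between genes. Among all peaks with a mean of at least 40 the shares were 16.5%, 2.32%, 40.7% and 40.5%. In the mirror set 1.04% lay at promoters. The members had a median width of 769 bp against 910 bp in the peaks with a mean of at least 40, and a median GC content of 47.3% against 47.2%. Their counts were lower too, with a median of 79.5 against 139. Over all nuclear peaks 10.8% lay at promoters and the median width was 588 bp. No start site lay within 100 kb of 161 members (15.8%, against 16.1%), and where there was one its median distance was 16678 bp.

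The promoter member of highest count was also the member of highest count of all. It covered the start of Depp1, a regulator of autophagy, at chr6:116649307-116654969. Its counts were 726, 1117 and 750 against 694, 605 and 448 in the pancreas, 3048 and 4185 against 2460 and 2372 in the liver, and 894, 1779 and 1460 against 906, 1166 and 647 in the lungs. The states overlapped in the lungs, and its ratios of 0.674, 0.668 and 0.658 were near the limit. By limma it was higher in the liver than in the pancreas with Smad4 off by 2.07 on the log2 scale (SE 0.28, adjusted p = 3.78e-05). After Gli2, the next promoters by count were those of Adora1 (649 on average), Tmem184a (620), the receptor phosphatase Ptprh (463), Acot1 (453), the peptidoglycan recognition protein Pglyrp1 (405), the tyrosine kinase Src (342), the opioid receptor Oprd1 (332) and the epithelial cytokine Il17c (327). Members at promoters had median ratios of 0.546, 0.606 and 0.623 in pancreas, liver and lungs, and those between genes of 0.496, 0.540 and 0.606.

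The 2 distal members of highest count lay 20376 bp from Xbp1, a transcription factor of the unfolded protein response, and 11371 bp from Hils1, a histone of spermatids. At the Xbp1 site, chr11:5497893-5500283, the counts were 591, 804 and 611 against 220, 217 and 216 in the pancreas, 2099 and 1755 against 784 and 954 in the liver, and 407, 1051 and 730 against 429, 527 and 398 in the lungs. The lungs overlapped at this site, since the first Lung_OFF sample lay below 2 Lung_ON samples. At the Hils1 site, chr11:94953389-94956222, they were 1126, 1144 and 1339 against 658, 442 and 460, then 1576 and 1268 against 239 and 188, and 758, 739 and 724 against 371, 247 and 293 in pancreas, liver and lungs, with no overlap. This site, the Gli2 promoter and a Gli2 intron site (chr1:119047580-119048628) were the 3 members called lower in the lungs.

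Most members were called higher in the liver than in the other organs. With Smad4 off, 685 of 1020 members (67.2%) were called higher in the liver than in the lungs, where 22.9% of all peaks were, and 44 were called lower, where 26.8% were. Against the pancreas, 755 members were higher in the liver and 39 lower, with 26.2% and 32.3% of all peaks called in these directions. The median log2 fold change of the members was 1.25 against the lungs and 1.52 against the pancreas, while that of all peaks was 0.00 and -0.05. The minimum mean of 40 was taken over all samples, so a peak could pass it through the liver alone. With the minimum taken over the 12 pancreas and lung samples, 795 peaks met the rule, 778 of them members. Of these 58.2% were called higher in the liver than in the lungs and 66.0% than in the pancreas, against 18.4% and 21.5% of the 81266 peaks that passed the same minimum. The lungs and the pancreas were closer, with 139 members higher in the lungs (6.59% of all peaks), 20 lower (10.7%), and a median of 0.33. This count rested on single samples: 159 members called in either direction became 290 without the first Lung_OFF sample, 78 without the second, 102 without the third and 50 without the third Panc_OFF sample.

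With Smad4 restored the liver was again highest at most members. The liver was higher than the lungs at 562 members, where 17.6% of all peaks were called, and lower at 72, where 18.2% were. Without the second Liv_ON sample these 634 became 352. The liver was higher than the pancreas at 785 and lower at 54, with 27.1% and 32.2% of all peaks called. With the minimum mean taken over the 12 pancreas and lung samples, 795 peaks met the rule. Of these 46.7% were called higher in the liver than in the lungs and 9.94% lower, against 13.1% and 23.5% of the 81266 peaks past that minimum. Compared with the pancreas, 69.9% were called higher in the liver and 7.55% lower, against 23.7% and 33.6%. The lungs were higher than the pancreas at 438 and lower at 19, with 12.8% and 14.9% of all peaks called. Of the 685 members higher in the liver than in the lungs with Smad4 off, 554 (80.9%) were called in that direction with Smad4 restored too, against 67.5% of the 18661 peaks with a mean of at least 40 that were higher in the liver with Smad4 off. Medians were 0.96, 1.68 and 0.70 on the log2 scale. The 6 organ comparisons share samples and are not independent of each other.

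**Figure D4:**
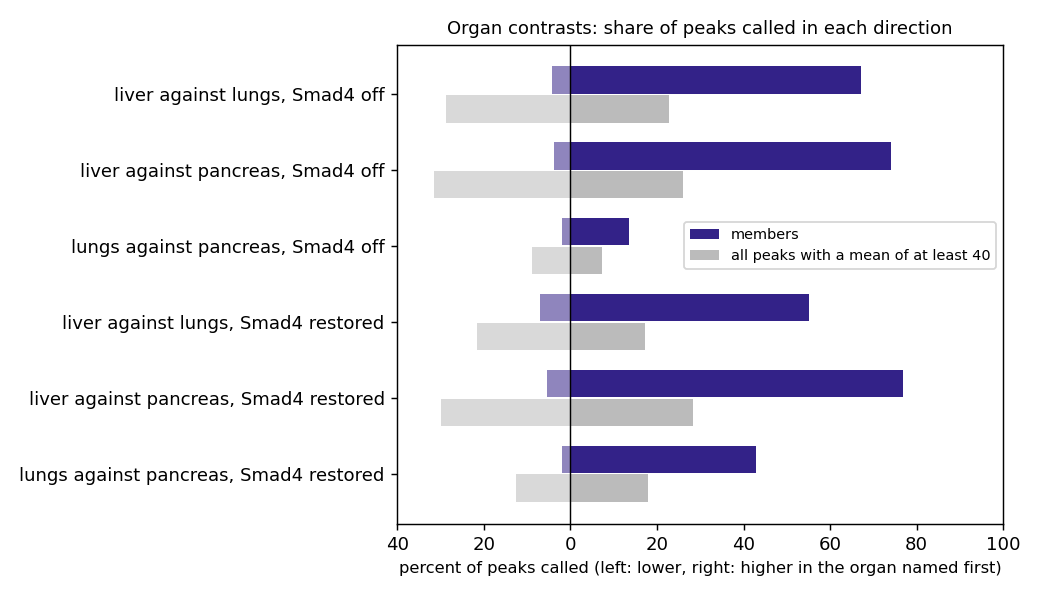
Share of peaks (percent) called higher (right) or lower (left) in the organ named first, for the 1020 members (dark) and for all 82067 peaks with a mean of at least 40 (grey). In the 4 comparisons with the liver, 55.1% to 77.0% of the members are called higher in the liver, against 17.1% to 28.3% of the other set.

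Taking both comparisons together, 647 members (63.4%) were called higher in the liver than in the lungs and the pancreas with Smad4 off, against 19.4% of the peaks with a mean of at least 40. In the lungs 12 members (1.18%, against 2.52%) were called highest, in the pancreas 8 (0.784%, against 7.40%), and 155 (15.2%, against 33.2%) had no call in any comparison. In 559 members (54.8%, against 43.1% of the peaks with a mean of at least 40) the mean in the liver with Smad4 restored was above the means of both other organs with Smad4 off. The 647 and 559 members here, and the 554 above, were counted with the minimum mean over all samples. A peak could pass that minimum through the liver alone. In the mirror set 830 peaks (72.2%) were called lower in the liver than in the lungs with Smad4 off and 45 (3.92%) higher. Of the peaks with a mean of at least 40, 28.7% were called lower and 22.7% higher. The median log2 fold change of the mirror set was -1.57. Its rule used the same liver values and the same minimum mean over all samples, so these counts are not independent of its choice.

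Signal at markers of tumour epithelium was also highest in the liver. The 66 peaks nearest to its 8 markers, all with peaks (Cdh1, Cldn4, Cldn7, Epcam, Krt7, Krt8, Krt18 and Krt19), summed to 89583 to 92662 in Liv_OFF and 71643 to 93279 in Liv_ON. They summed to 36037 to 41307 in Panc_OFF, 27159 to 33977 in Panc_ON, 38147 to 56679 in Lung_OFF and 47332 to 52153 in Lung_ON. None of the 66 was a member. Of 12 hepatocyte markers 8 had peaks, whose 69 peaks summed to 9279 to 9676 in Liv_OFF and 8544 to 9520 in Liv_ON, against 7380 to 8646 in the other groups. No peak was nearest to Apoa2, Cyp2e1, Fga or Fgb, and no peak lay within 1000 bp of the start sites of Alb and Apoa1. The 3 hepatocyte promoters with a peak were higher in the liver, with Smad4-off means in liver, pancreas and lungs of 893, 279 and 380 at Apob, 198, 85.5 and 74.1 at Ttr and 1076, 724 and 565 at Ass1. The fibroblast list, with all of its 10 markers, summed to 15586 to 27505 in the pancreas groups and 7493 to 11596 in the others. Leukocyte sums ran from 2955 to 4254, endothelial sums from 6173 to 9364, lung epithelial sums from 11214 to 15640 and acinar sums from 4554 to 6311 over all groups, while islet sums were 4946 to 6684 in the pancreas, 8158 to 9806 in the liver and 7010 to 9180 in the lungs. No peak was nearest to the leukocyte genes Cd3e, Cd79a, Lyz2 and Tyrobp. The part of other cells, or of more epithelial cells, in the organ differences was not tested.

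The members called highest in the liver with the smallest p were the Il17c promoter and sites at Efhd2, a calcium-binding protein, and near Foxj1, the regulator of motile cilia. At Il17c, chr8:122421215-122422341, the counts in the liver were 1134 and 1133 with Smad4 off and 638 and 691 with Smad4 restored. In the pancreas they were 136, 222 and 131 against 95.1, 111 and 89.7, and in the lungs 98.5, 256 and 145 against 103, 121 and 122. All liver samples lay above all others, the 2 states overlapped in the lungs, and the log2 fold change against the lungs was 2.87 with Smad4 off (SE 0.31, adjusted p = 1.97e-05). The Efhd2 intron site (chr4:141859890-141864095) was higher in the liver than in the pancreas by 2.98 (SE 0.20, adjusted p = 1.65e-06) and also higher in the lungs than in the pancreas by 1.12 (SE 0.18, adjusted p = 0.00117). The Foxj1 site (chr11:116326972-116327665) stood at 353 and 458 in Liv_OFF and at 32.7 to 72.4 in the other Smad4-off samples. It passed the minimum mean of the rule through the liver, the organ in which it was called highest.

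Of the 12 members highest in the lungs, a site at chr17:70762226-70763129 in an intron of Dlgap1 had Tgif1, a repressor that binds Smads, as nearest start site, 86661 bp away. Its Smad4-off counts were 309, 196 and 341 in the lungs, 120, 132 and 123 in the pancreas and 131 and 117 in the liver. The lungs were above both other organs in every sample, by 1.13 against the pancreas (SE 0.26, adjusted p = 0.0104). The other 2 of smallest p, in introns of Fmnl2 and Itpr2, had no start site within 100 kb. The Itpr2 site lies on distal chromosome 6, where the first Lung_OFF sample was raised.

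Of the 8 members highest in the pancreas, the 3 of smallest p included an intron site of Ctdspl, a phosphatase. At chr9:118974788-118975434 its Smad4-off counts were 107, 127 and 146 in the pancreas, 28.4 and 19.5 in the liver and 12.9, 6.52 and 5.17 in the lungs. It was lower in the lungs than in the pancreas by a log2 fold change of -3.87 (SE 0.49, adjusted p = 0.000374). Its Lung_OFF mean of 8.19 was the lowest of all members, so this fold change and its lung ratio rest on few reads. The site passed the minimum mean of the rule through the pancreas, the organ in which it was called highest. The other 2 were the Gli2 site described above and a site on chromosome 16 with no start site within 100 kb.

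The genes of TGF-beta and BMP signalling held 6 members among their 424 peaks with a mean of at least 40 (1.42%, against 1.24% over all such peaks), and 6 peaks of the mirror set. The members were at the inhibitory Smads, Smad6 (2 sites) and Smad7, and at Smad2, the co-receptor Tgfbr3 and Tgif1. The Smad7 site, chr18:75357795-75358387, had counts of 58.1, 96.5 and 50.0 against 22.2, 35.9 and 28.4 in the pancreas. In the liver they were 362 and 326 against 198 and 222, and in the lungs 59.8, 162 and 99.1 against 47.2, 66.1 and 44.8. The lung states overlapped here, and the liver lay above both other organs in every sample. Across all peaks of this list the median ratios were 1.04, 1.10 and 1.04.

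A list of mucin, trefoil and gastric genes held 3 members among 79 such peaks (3.80%, against 1.24% over all such peaks). The members lay near Muc4, Muc5ac and Gkn1, and the list held none of the mirror set. The list does not hold Muc3, a mucin gene nearest to 2 members. The Muc4 site, chr16:32707775-32709696, had counts of 58.9, 158 and 74.1 against 36.4, 53.2 and 24.5 in the pancreas, 879 and 798 against 294 and 302 in the liver, and 92.0, 272 and 215 against 60.6, 103 and 52.3 in the lungs. It was higher in the liver than in the pancreas with Smad4 off by 3.23 (SE 0.46, adjusted p = 5.55e-05). The median ratio over all 79 peaks was 0.748, 0.855 and 0.986 in pancreas, liver and lungs. Epithelial identity genes held 5 members among 251 peaks (1.99%, against 1.24%) and none of the mirror set. The members lay near the transcription factors Elf3, Grhl3 and Ovol2, the junction protein Tjp1 and the protease Prss8. Of all 82067 peaks with a mean of at least 40, 1149 were in the mirror set. Lists of these sizes would hold few members or mirror-set peaks, so nothing is read from these counts.

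Mesenchymal genes and the factors of epithelial-mesenchymal transition held 0 members and 14 peaks of the mirror set among 251, and median ratios of 1.25, 1.54 and 1.07. Of all 82067 peaks with a mean of at least 40, 1.24% were members and 1149 peaks were in the mirror set. Wnt and Notch genes held 5 members among 377 (1.33%), 3 at Heyl and 1 each at Fzd1 and Lef1. That list does not hold the Wnt ligand Wnt5b, nearest gene to 2 members. KLF factors (153 peaks), RUNX factors (84), AP-1 subunits (86) and basal genes (129) held none. At a share of 1.24%, lists of these sizes would hold few members, so nothing is read from their having none. The ETS list (Etv6), MAPK feedback genes (Spry2), growth factor receptors and ligands (Ephb2), cell cycle genes (Ccnd3), YAP and TEAD genes (Ccn1) and inflammatory genes (Socs3) held 1 each. These were 0.332% to 0.671% of the peaks of each list with a mean of at least 40. Several of these sites were far from the named start site, up to 92580 bp at Ephb2, and the nearest gene need not be the gene a site acts on. Among the lists of other cell types, Itgam, Pdgfra, Apob and Foxj1 were each nearest to 1 member, and the endothelial, acinar and islet lists held 0 members.

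The share with the letters of the AP-1 motif was lower in the members than in the sets set beside them. They were present in the central 300 bases of 131 members (12.8%), against 30.8% of the peaks with a mean of at least 40, 34.1% of all nuclear peaks and 55.4% of the mirror set. Peaks called higher in the liver than in the lungs that were not members had 19.5%. Among members the share was 10.4% where the liver was called higher than the lungs and 17.9% in the rest. It was lower than in the peaks with a mean of at least 40 in each of 4 bins of GC content, with 17.1% against 42.1% in the bin of lowest GC and 6.48% against 15.2% in the highest. Outside promoters it was 13.3% against 35.6%.

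The E-box CACCTG was present in 295 members (28.9%), against 19.6% of the peaks with a mean of at least 40 and 14.5% of the mirror set. By organ pattern, 35.3% of members called higher in the liver than in the lungs held it, against 15.8% of the other members, and the liver-higher non-members held it at 28.9%. In the bin of highest GC content 45.8% of members had it, against 25.7%. ETS letters were in 26.3% against 21.1%, GATA in 20.0% against 15.4%, HNF1 in 13.4% against 9.56%, FOX in 8.43% against 5.54% and HNF4 in 8.33% against 5.59%. TEAD stood at 23.3% against 19.01%. The liver-higher non-members had 22.9% for ETS, 16.6% for GATA, 11.7% for HNF1, 6.40% for FOX, 7.42% for HNF4 and 19.6% for TEAD.

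The SMAD letters CAGACA were present in 251 (24.6%), against 25.8% of the peaks with a mean of at least 40 and 36.03% of the mirror set. RUNX letters had the same order, with 23.7%, 25.3% and 33.9%. KLF letters were in 24.9% of members, 25.3% of the peaks with a mean of at least 40 and 17.3% of the mirror set. SOX (15.9% against 15.2%) and ONECUT (3.63% against 3.25%) were near the wider set. Within the central 200 bases the AP-1 share was 9.51% against 24.3%, and the E-box share 21.3% against 13.5%. These shares were not tested.

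**Figure D5:**
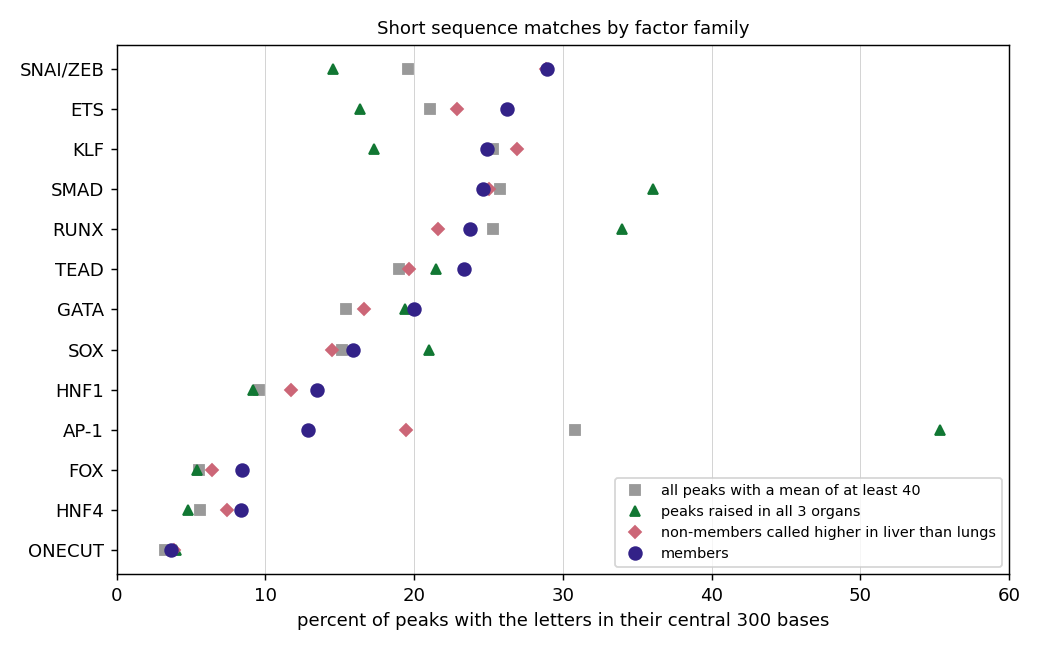
Percent of peaks with each motif's letters in their central 300 bases, for the 1020 members (circles), all 82067 peaks with a mean of at least 40 (squares), the 1149 peaks of the mirror set (triangles) and the 17976 non-members called higher in the liver than in the lungs (diamonds). AP-1 separates the sets most, from 12.8% in the members to 55.4% in the mirror set.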

How the data were processed

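ATAC-seq was made from sorted tumour cells of 16 mice in 6 groups. Per the labels and the study's methods, the authors trimmed reads with Trim Galore and cutadapt, checked them with FastQC 0.11.5, used Bowtie2 for alignment to mm10 and MACS2 for peaks, kept peaks under a p limit and off the ENCODE blacklist, merged those within 500 bp and counted reads with featureCounts. The deposited signal is 1 normalised count per peak and sample, divided by DESeq2 size factors. The table is called filtered. Any filter beyond that on peaks, the transposase shift and the handling of duplicates were not given in the sources used here. Dividing by size factors makes samples comparable only if most peaks do not change. All values (100%) came back as whole reads within 0.01, and 22.5 M to 37.5 M reads per sample lay in the 136630 nuclear peaks. The mitochondrial row was left out.

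The members, gene lists and motifs were chosen with earlier results of these data known. Part of the genotype and the result of 1 gene list are not reported here. The design assumed such normalised values, so organ groups were compared with limma 3.58.1 (R 4.3.3, trend and robust) on log2(value + 1) over all nuclear peaks, with 6 group means and Benjamini-Hochberg adjustment. Each sample came from its own mouse, and p-values cover the spread between mice. The fit was tested on simulated data. Peaks were annotated with GENCODE vM21 protein-coding start sites on GRCm38.p6 (promoter within 1000 bp, nearest gene within 100 kb). Named members were the 10 whose highest ratio was lowest, the 10 promoters and 3 members of highest count, members of genes with at least 3, the 3 of smallest p highest in each organ, members at listed genes, and those at the limits of the rule.

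Replicate numbers were checked for pairing. The correlation of deviations of same-numbered samples was 0.491, 0.124 and 0.214 in the lungs, -0.33, 0.03 and -0.33 in the pancreas and 0.08 in the liver, so they were taken to pair samples only in the lungs, from the data and not from the labels. Alternatives were other limits, TMM, quantile and GC scaling, a pseudocount of 10, filters on low values, geometric means, stricter thresholds, each sample left out, the replicate block, and edgeR 4.0.16 and DESeq2 1.42.0 on recovered reads. A block within the lungs, leaving out distal chromosome 6 in the comparisons, and a minimum mean over pancreas and lung samples alone were added after seeing the data.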

Additional observations from a re-analysis of the deposited data

How the results depend on the processing

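The rule found 304 peaks at a ratio of 0.6, 2911 at 0.8, 1666 at a mean of at least 20 and 508 at 80. Leaving out 1 sample gave 504 to 1813, other scalings 961 to 1163 and geometric means 902.

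Of 383 values for single members under alternatives, 379 kept their direction and call, 4 kept direction only and 0 reversed. These values cover only the members of smallest p highest in each organ, in comparisons called for them in the main fit. That choice from the same data favours stability, so nothing is read from it for members in general. Called members for the lungs against the pancreas with Smad4 off were 64 at stricter thresholds and 240 with DESeq2, and 266 at stricter thresholds with Smad4 restored. Leaving out 1 sample gave 560 to 746 and 667 to 776 for the liver against lungs and pancreas with Smad4 off, 50 to 290 for the lungs against the pancreas, and with Smad4 restored 352 to 596, 733 to 823 and 288 to 425. Quantile scaling moved the higher share of all peaks called between lungs and pancreas with Smad4 restored from 46.3% to 56.8%.

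For restoration, which chose the members, stricter thresholds gave 236 in the pancreas and 19 in the liver. In the liver quantile scaling gave 22, edgeR 23 and DESeq2 194. In the lungs a fit to these groups alone gave 0 and DESeq2 81. Leaving out 1 sample gave 83 to 329, 2 to 42 and 0 to 10.

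With the replicate block, organ comparisons called 718, 798 and 172 members with Smad4 off and 613, 841 and 488 with Smad4 restored. Restoration called 458, 47 and 1 in pancreas, liver and lungs, and with GC correction added 15 in the liver and 1 in the lungs. A block within the lungs, added after seeing the data, gave 11. Members of low count, with a median of 28.5 reads in the shallowest sample, are the least precise.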
